A study of Saccharomyces cerevisiae with 18 samples.

Results

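The genes described here act in meiosis and spore formation in the budding yeast Saccharomyces cerevisiae. They are 46 ORFs listed by name, out of 6650 named ORFs in the deposited expression table. Messenger RNA was measured by sequencing in the laboratory strain BY4741, a haploid of mating type a, grown from an initial OD of 0.1 in rich medium with the pentose sugar xylulose and harvested in log phase. Every strain carried 1 edit in a subunit gene of the large Rpd3 histone deacetylase complex (Rpd3L). RXT3 was either deleted or replaced by its version from strain T73 or strain CLIB215, and PHO23 was edited in the same 3 ways. The labels list 18 libraries, 3 for each of these 6 strains, but the table holds 1 column per strain, with no replicate values. Unedited BY4741 is not analysed here. The labels do not say how many clones or cultures stand behind a strain.

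In a diploid cell starved of nitrogen and of a fermentable carbon source, the activator Ime1 switches on the early meiotic genes, and the transcription factor Ndt80 then switches on the middle genes that drive the divisions and build the spore. In growing cells the DNA-binding protein Ume6 sits on a promoter element called URS1 in many early genes and recruits Rpd3 with Sin3, which keeps them silent. Middle genes carry another element, the MSE, which Ndt80 binds in meiosis and the repressor Sum1 binds, with the deacetylase Hst1, in growing cells. A haploid of mating type a does not sporulate, and most of these genes are known as silent or weakly transcribed in such cells.

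The promoters were read first, because URS1 is where Rpd3L is known to act. The 300 bases before the start codon, from RefSeq's R64 assembly, were searched on both strands for the URS1 core GGCGGC. It was found in 20 of the 46 genes (43.5%) against 312 of 5925 annotated promoters (5.27%). The longer form GGCGGCTA was found in 16 of the 46 (34.8%) and in 80 of all promoters (1.35%). The core was present in 15 of the 26 genes for regulation, recombination, chromosome axis and synapsis, and in 2 of the 15 genes for the spore membrane and wall. The MSE core CACAAA was also searched on both strands. It was present in 13 of those 15 (86.7%), in 6 of the 26 (23.1%) and in 1143 of all promoters (19.3%). A match is a string of letters and not a shown binding site. The URS1 stretches of 8 of the genes described below are shown so that the core and its flanks can be compared. Each is read 5′ to 3′ on the coding strand of its gene, with the core in capitals, as GGCGGC or as its reverse complement GCCGCC.
ZIP1 (chrIV:1032399-1032435, plus strand): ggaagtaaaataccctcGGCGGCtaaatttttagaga
DMC1 (chrV:548266-548305, plus strand): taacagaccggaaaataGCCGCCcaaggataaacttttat
HED1 (chrIV:477712-477751, plus strand): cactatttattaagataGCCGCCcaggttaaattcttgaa
SPO13 (chrVIII:131935-131974, plus strand): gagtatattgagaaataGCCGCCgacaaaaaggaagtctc
SPO16 (chrVIII:402748-402787, minus strand): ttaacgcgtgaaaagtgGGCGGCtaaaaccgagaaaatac
SPO22 (chrIX:226056-226095, minus strand): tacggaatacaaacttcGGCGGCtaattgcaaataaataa
HOP1 (chrIX:226414-226453, plus strand): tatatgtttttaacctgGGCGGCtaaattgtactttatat
DON1 (chrIV:1009998-1010037, plus strand): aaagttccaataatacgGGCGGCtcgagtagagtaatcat
The first 7 hold the longer form, read as GGCGGCTA or its reverse complement. DON1, a middle gene, holds the core alone and also an MSE core. In ZIP1 the core begins 20 bases before the start codon, and in SPO13, the gene in which URS1 was studied early on, 95 bases before it.

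Most of the 46 genes had few values. Only 10 (21.7%) had a value in all 6 columns, against 4956 of all ORFs (74.5%), and 8 (17.4%) had none, against 14.0% of all ORFs. Per column, 18 of the 46 had a value where RXT3 was labelled deleted, 25 in the RXT3 T73 column and 26 in the RXT3 CLIB215 column. In the PHO23 columns 23 had a value in the deletion, and 18 each with the T73 and CLIB215 alleles. These counts are 39.1% to 56.5% of the genes, where 79.2% to 81.1% of all ORFs had a value. The minimum that a value needed is not given in the sources used here, so a missing value cannot be read as no RNA. In a bulk culture, fewer cells with a transcript and less transcript per cell cannot be told apart.

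The columns in which values appeared differed between genes with and without the URS1 core. Of the 20 genes with the core, 13 had a value in the PHO23 deletion and 11 with the PHO23 CLIB215 allele, against 6, 9 and 10 in the RXT3 columns (deleted, T73, CLIB215) and 8 with the PHO23 T73 allele. Of the 26 genes without the core, 10 and 7 had a value in the first pair of columns, against 12, 16 and 16 in the RXT3 columns and 10 with the PHO23 T73 allele. Genes with the core thus had values in more of their number in the PHO23 deletion (65.0%) than in any other column, and genes without it in the RXT3 T73 and CLIB215 columns (61.5% each). This was not so for the 292 other ORFs with the core, of which 82.5% had a value in the PHO23 deletion, 81.2% with the PHO23 CLIB215 allele and 80.8% to 83.9% in the other columns. Among genes with 1 to 5 values, none of the 10 with the core was without a value in both the PHO23 deletion and the PHO23 CLIB215 allele. Of the 18 without it, 12 were (66.7%). Outside these genes, 16 of 46 ORFs with the core and 1 to 5 values were (34.8%), and over all named ORFs the share was 33.9%. These groups were not matched for the number of values. A single value was held by 9 of the 18 genes, 2 of the 10 and 208 of the 761 named ORFs with 1 to 5 values. A gene with a single value lacks one in most columns, so the shares are not a like comparison. With columns named by the genotype field of the labels, which differs from the titles for 3 of the 6 strains, genes with the core with a value numbered 9 in the PHO23 deletion and 13 with the RXT3 CLIB215 allele. These are counts over single columns, the contrast of columns was chosen after the values were seen, and no replicate check exists.

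**Figure D1:**
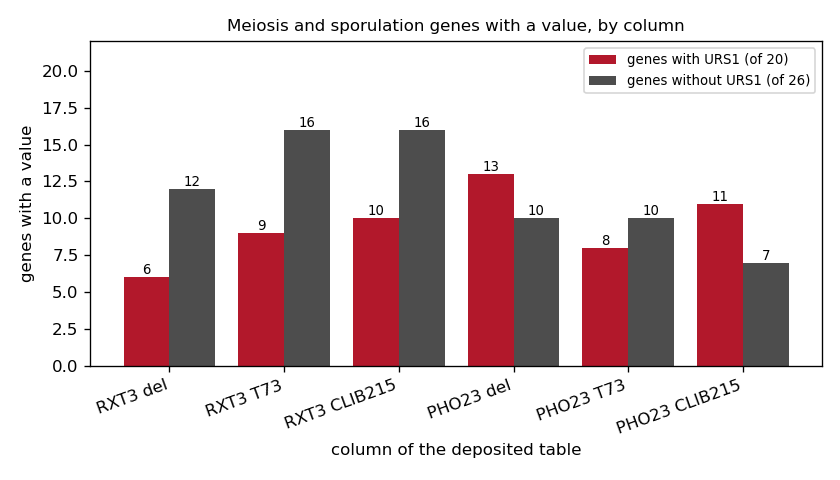
Number of the 46 genes with a value in each column of the deposited table, for the 20 genes with the URS1 core GGCGGC in the 300 bases before the start codon (red bars) and the 26 without it (grey bars). The red bars are highest for the PHO23 deletion (13) and the PHO23 CLIB215 allele (11), and the grey bars for the T73 and CLIB215 alleles of RXT3 (16 each).

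All values below are log values, read as log2, that lie around 0 for each ORF and are read as relative to a centre, which is not given in the sources used here. Read so, they tell how the columns differ for 1 gene and hold no expression level, and genes were not ranked by abundance. Of 11 genes with a single value, 7 were at 0, as 126 of 208 such ORFs were in the whole table while the other 82 were not, so a lone value carries no comparison. Differences of at least 1 unit were counted as a rule of size, with no test, since there is 1 value per strain. In the PHO23 columns, PHO23 itself had no value in the deletion, while RXT3 stood at −0.05 in the column labelled RXT3 deleted and at 0.11 and 0.23 with its T73 and CLIB215 alleles, so that deletion is not visible here. Where title and genotype field disagree, the titles are followed. PHO23 lacked a value only in the column titled as its deletion. In the column that the genotype field names the PHO23 deletion, titled RXT3 T73, PHO23 stood at −0.07. As a check of mating type, all 6 a-specific genes looked up had 6 values, and none of 4 alpha-specific genes had. Each of these 4 had at least 1 value, however, and SAG1 had 5, from −0.63 to 0.91. The PHO23 deletion and PHO23 CLIB215 columns are more widely spread than the others over complete ORFs (SD 0.421 and 0.422 against 0.282 to 0.319).

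**Figure D2:**
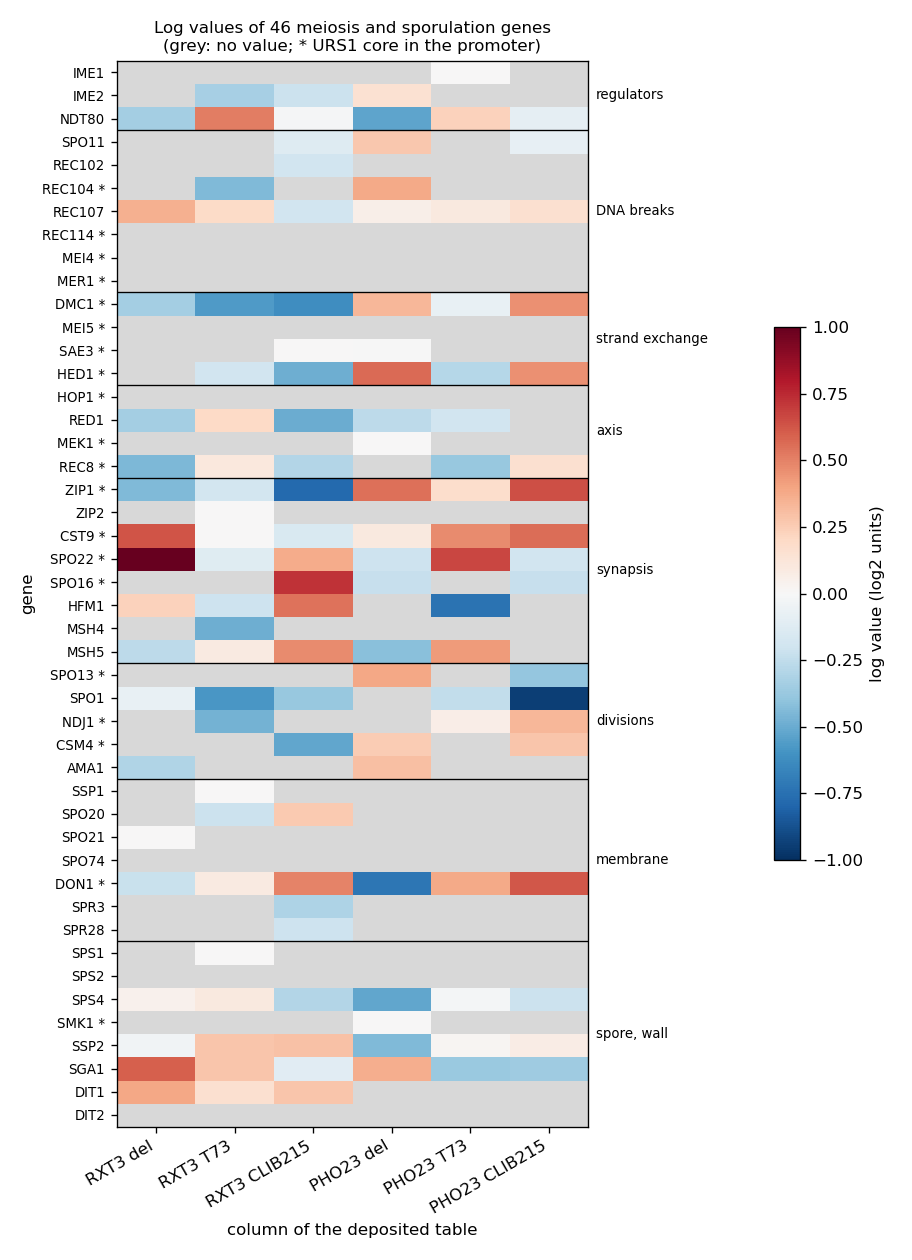
Log values of the 46 genes (rows, ordered by role, an asterisk marking the URS1 core) in the 6 columns of the table, in log2 units from blue (low) to red (high), with grey for no value. Rows with 6 values are few (10), and DMC1, HED1 and ZIP1 are red in the PHO23 deletion and the PHO23 CLIB215 column and blue in each RXT3 column that has a value.

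Of the 3 master regulators, NDT80 had 6 values and the other two had fewer. IME1 (YJR094C), the activator that starts meiosis, had a single value, 0.00 with the PHO23 T73 allele. IME2, a protein kinase gene that Ime1 switches on, had values of −0.33 with the RXT3 T73 allele, −0.22 with the RXT3 CLIB215 allele and 0.16 in the PHO23 deletion. NDT80 (YHR124W, chromosome VIII, 356561 to 358444), the activator of the middle genes, had 6 values. They were −0.34, 0.51 and −0.01 in the RXT3 columns (deleted, T73, CLIB215) and −0.53, 0.23 and −0.09 in the PHO23 columns in the same order. At both loci NDT80 was lowest in the deletion and highest with the T73 allele, by 0.86 at RXT3 and 0.76 at PHO23, short of 1 unit in each case.

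The genes that make the DNA breaks of meiotic recombination were mostly without values. SPO11, which cuts the DNA, had −0.13 with the RXT3 CLIB215 allele, 0.27 in the PHO23 deletion and −0.08 with the PHO23 CLIB215 allele, and nothing in the other columns. REC104, a partner of Spo11 with the URS1 core, had −0.44 with the RXT3 T73 allele and 0.38 in the PHO23 deletion. REC102, another partner, had 1 value (−0.19, RXT3 CLIB215). REC114 and MEI4, also needed for breaks, and MER1, a meiotic splicing factor, had none. REC107 (also called MER2) was the exception, with 0.35, 0.19 and −0.20 in the RXT3 columns and 0.06, 0.10 and 0.16 in the PHO23 columns. Its span over the 6 columns, 0.55, was the smallest among the 10 complete genes, and it has no URS1 core in the window. Its transcript is known to be spliced in meiosis by Mer1.

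The strand exchange genes come next. DMC1 (YER179W, chromosome V, 548421 to 549517), the meiotic recombinase, stood at −0.34, −0.56 and −0.62 in the RXT3 columns, in the order deleted, T73 and CLIB215. In the PHO23 columns it stood at 0.33 in the deletion, −0.08 for T73 and 0.46 for CLIB215. HED1 (YDR014W-A, chromosome IV, 477797 to 478285), a meiosis-specific gene of the same step, had no value where RXT3 was labelled deleted, −0.19 and −0.49 with the RXT3 alleles of T73 and CLIB215, and 0.57, −0.29 and 0.46 in the PHO23 columns. Both were thus highest in the PHO23 deletion and the PHO23 CLIB215 column, with every other value below 0. SAE3, a helper of Dmc1, had 0.01 with the RXT3 CLIB215 allele and −0.01 in the PHO23 deletion, and its partner gene MEI5 had no value.

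Of the chromosome axis genes, none had 6 values. RED1, a core axis protein gene, had −0.34, 0.20 and −0.49 in the RXT3 columns, −0.26 in the PHO23 deletion and −0.19 with the PHO23 T73 allele. REC8, the meiotic cohesin gene, had −0.45, 0.10 and −0.29 in the RXT3 columns, −0.38 with the PHO23 T73 allele and 0.16 with the PHO23 CLIB215 allele. In REC8 the PHO23 CLIB215 value was again the highest, but it has no value in the PHO23 deletion. MEK1, a checkpoint kinase gene with a pair of URS1 cores, had a value in the PHO23 deletion only (0.00). HOP1, the axis protein that Mek1 answers to, had none.

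Synapsis, the zipping of paired chromosomes, had 6 values in 3 of its 8 genes. ZIP1 (YDR285W, chromosome IV, 1032436 to 1035063), the central protein of the synaptonemal complex, stood at −0.44, −0.18 and −0.78 in the RXT3 columns and at 0.55, 0.18 and 0.64 in the PHO23 columns (deleted, T73, CLIB215). Its span of 1.42 was the largest of the 10 complete genes, whose median was 1.00 against 0.76 for all complete ORFs. These sets were not matched for abundance, which the values do not hold, and its part in the spans was not tested. SPO22 (also called ZIP4; YIL073C, chromosome IX, 222937 to 225954) went another way, although its promoter holds the longer URS1 form. It stood at 1.00, −0.12 and 0.37 in the RXT3 columns and at −0.21, 0.67 and −0.19 in the PHO23 columns. SPO22 was thus highest where RXT3 was labelled deleted, and low in the PHO23 deletion and the PHO23 CLIB215 column, where ZIP1 was high.

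SPO22 and HOP1 are read away from each other, with 647 bases between their starts and a URS1 core on each side, yet SPO22 had 6 values and HOP1 none. HFM1 (also called MER3), a helicase gene, and ZIP2 are a like divergent pair, 1461 bases apart and without the core. HFM1 had 0.23, −0.21 and 0.55 in the RXT3 columns and −0.74 with the PHO23 T73 allele, and ZIP2 had 1 value (0.00, RXT3 T73). An annotated antisense RNA, RME3, covers 1905 bases of ZIP2 on the other strand, and the strand setting of the counts is not given in the sources used here. CST9 (also called ZIP3), an E3 ligase gene, had 0.63, 0.00 and −0.15 in the RXT3 columns and 0.10, 0.47 and 0.56 in the PHO23 columns. SPO16, which binds branched DNA with Zip2, had 0.72 with the RXT3 CLIB215 allele and −0.23 in both the PHO23 deletion and the PHO23 CLIB215 column. MSH5, of the crossover pair MSH4 and MSH5, had −0.26, 0.09 and 0.47 in the RXT3 columns, −0.41 in the PHO23 deletion and 0.42 with the PHO23 T73 allele, while MSH4 had 1 value (−0.49, RXT3 T73).

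The genes of the meiotic divisions had 2 to 5 values each. SPO13, which holds sister chromatids together in the first division, had values in the PHO23 deletion (0.38) and with the PHO23 CLIB215 allele (−0.38) and in no other column. Of all ORFs, 10 (0.150%) had values in just these columns, where the 15 pairs of columns held 2 to 14 ORFs each with a median of 8, and 1 of the others was ECM11, an early gene of synapsis. CSM4, which moves telomeres, had −0.52 with the RXT3 CLIB215 allele, 0.26 in the PHO23 deletion and 0.28 with the PHO23 CLIB215 allele. NDJ1, its telomere partner, had −0.47 with the RXT3 T73 allele, 0.07 with the PHO23 T73 allele and 0.33 with the PHO23 CLIB215 allele. AMA1, an activator of the anaphase-promoting complex with no URS1 core in the window, had −0.30 where RXT3 was labelled deleted and 0.30 in the PHO23 deletion. SPO1, a gene of spindle pole body duplication, ran the other way, from −0.07 where RXT3 was labelled deleted to −0.94 with the PHO23 CLIB215 allele, with no value in the PHO23 deletion.

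Of the 7 middle genes that shape the spore membrane, 1 had all values. DON1 (YDR273W, chromosome IV, 1010176 to 1011273), a protein of the membrane's leading edge, stood at −0.22, 0.09 and 0.49 in the RXT3 columns and −0.73, 0.38 and 0.62 in the PHO23 columns. Within each locus DON1 was lowest in the deletion and highest with the CLIB215 allele. SSP1 (RXT3 T73) and SPO21 (RXT3 deleted) had 1 value of 0.00 each, the septin genes SPR3 (−0.31) and SPR28 (−0.21) had 1 value each with the RXT3 CLIB215 allele, and SPO20, a fusion protein gene, had −0.21 and 0.26 with the RXT3 alleles of T73 and CLIB215. SPO74 had none. Apart from DON1, no gene of this role had a value in a PHO23 column.

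Among the genes of spore maturation and wall, SGA1, a glucoamylase gene, had 0.60, 0.28 and −0.11 in the RXT3 columns and 0.36, −0.37 and −0.35 in the PHO23 columns. SPS4 ran from −0.52 in the PHO23 deletion to 0.09 with the RXT3 T73 allele, and SSP2 from −0.44 in the PHO23 deletion to 0.29 with the RXT3 CLIB215 allele. Of the 6 complete genes with the MSE core, 4 were lowest in the PHO23 deletion (NDT80, DON1, SPS4, SSP2), as was 1 of the 4 without it (SPO22) and 21.2% of all complete ORFs. SGA1 and CST9, which also hold the MSE core, were lowest with the PHO23 T73 and the RXT3 CLIB215 allele. The count of genes lowest in the PHO23 deletion was not planned. None was taken over other ORFs with the MSE core, so a link to this core was not tested. DIT1, of dityrosine synthesis in the outer spore wall, had 0.38, 0.16 and 0.28 in the RXT3 columns and no value in a PHO23 column, as had 9 of all ORFs (0.135%). Its divergent neighbour DIT2, 898 bases away, had no value. Of the kinase genes, SMK1 had 1 value in the PHO23 deletion and SPS1 1 value with the RXT3 T73 allele, each 0.00. SPS2, which is not a kinase gene, had no value.

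The first comparison sets the natural alleles of PHO23 against each other, and asks how these genes differ with variation at this locus. DMC1 (−0.53, as T73 minus CLIB215), HED1 (−0.74), REC8 (−0.54) and ZIP1 (−0.47) were lower with the T73 allele, and SPO22 was higher by 0.86. None of the 10 complete genes differed by 1 unit or more, where 8.80% of all complete ORFs did, and their median difference was −0.06 against 0.06 for all, or −0.12 with the columns centred on their medians. Of the 8 genes with the URS1 core and both values, 7 were below 0, as were 3 of the 6 without it. Over the other ORFs with the core, 121 of 229 were below 0, with a median of −0.04, and over all ORFs with both values 2353 of 5142.

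Against its T73 allele, the PHO23 deletion had higher values of HED1 (0.85), SGA1 (0.73), DMC1 (0.41) and ZIP1 (0.37) and lower ones of DON1 (−1.11), SPO22 (−0.88), MSH5 (−0.84) and NDT80 (−0.76). DON1 was the 1 gene of 10 past 1 unit, where 8.47% of complete ORFs were. The median of the 10 was −0.41 against −0.04, and −0.0995 with columns named by the genotype field. Of the 8 genes with the MSE core and both values, 7 were below 0, SGA1 being the exception, as were 2 of the 5 without it and 2745 of 5185 ORFs. No such count was taken over other ORFs with the MSE core. Split by the URS1 core instead, 3 of the 6 genes with it were below 0, and 6 of the 7 without it. The T73 column is shared with the preceding comparison.

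As PHO23 deletion minus CLIB215 allele, the differences of early genes were −0.12 for DMC1, 0.11 for HED1 and −0.09 for ZIP1, with −0.46 for CST9 and 0.35 for SPO11. SPO13 was higher in the deletion by 0.77 and SGA1 by 0.71. DON1, at −1.35, was the 1 gene of 10 past 1 unit, against 3.21% of complete ORFs, and the median was −0.21 against 0.02 for all. It was −0.092 over the 15 genes with both values, and 0.051 with columns named by the genotype field. Below 0 were 6 of the 9 genes with the URS1 core and both values, and 4 of the 6 without it. DON1 and NDT80 (−0.44) were lower in the deletion than with either allele of PHO23, as were SPS4, SSP2, CST9, REC107 and SPO22. The other complete genes, DMC1, ZIP1 and SGA1, were not.

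At RXT3, the T73 allele had a median difference of 0.27 from the CLIB215 allele over the 10 complete genes, against 0.02 for all ORFs. It was 0.056 over the 19 genes with both values, and −0.016 with columns named by the genotype field. RED1 (0.69), ZIP1 (0.59) and NDT80 (0.52) were the highest with the T73 allele and HFM1 (−0.75), SPO22 (−0.49) and SPO20 (−0.48) the lowest. None of the 10 passed 1 unit, where 2.20% of complete ORFs did. DMC1 differed by 0.06. Below 0 were 2 of the 7 genes with the URS1 core and both values, and 7 of the 12 without it.

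Where RXT3 was labelled deleted, SPO22 was higher than with the RXT3 T73 allele by 1.12, the 1 gene of 10 past 1 unit (2.89% of complete ORFs), and NDT80 differed by −0.86. The median was 0.05 against 0.01, and 0.34 with columns named by the genotype field. Set against the RXT3 CLIB215 allele, none of 10 passed (2.32% of complete ORFs), and the median was 0.34 against 0.02, or 0.21 over the 16 genes with both values. CST9 (0.78), SGA1 (0.71) and SPO22 (0.62) were highest and MSH5 (−0.73) and DON1 (−0.72) lowest. DMC1 differed from these alleles by 0.22 and 0.28. Against T73, 3 of 6 genes with the URS1 core were below 0, and 5 of 10 without it. Against CLIB215, 2 of 6 and 4 of 10 were.

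The comparison of the deletions asks whether these genes stand alike without either subunit. ZIP1 (−0.99) and DMC1 (−0.68) were lower where RXT3 was labelled deleted than in the PHO23 deletion, as was AMA1 (−0.60). SPO22 was higher by 1.21, the 1 gene of 10 past 1 unit (9.02% of complete ORFs), followed by SPS4 (0.56), CST9 (0.53) and DON1 (0.50). The median was 0.35 against 0.03, and 0.053 with columns named by the genotype field. Below 0 were 2 of the 5 genes with the URS1 core and both values, and 2 of the 8 without it.

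Each natural allele was also compared between loci. With the CLIB215 allele, ZIP1 (−1.42) and DMC1 (−1.08) were lower at RXT3 than at PHO23, the 2 genes of 10 past 1 unit, where 8.96% of complete ORFs were. HED1 (−0.94), CSM4 (−0.80) and CST9 (−0.71) were below 0 too, and SPO16 (0.96) and SPO22 (0.56) above. Of the 9 genes with the URS1 core and both values 7 were below 0, as were 3 of the 7 without it, 125 of 227 other ORFs with the core and 2451 of 5148 of all ORFs. The median of the 10 was −0.10 against 0.03, and −0.21 with columns named by the genotype field. With the T73 allele none of 10 passed (3.05% of complete ORFs). The median was −0.10 against −0.01, but 0.10 over the 17 genes with both values and −0.29 with columns named by the genotype field. SPO22 (−0.79), NDJ1 (−0.54) and DMC1 (−0.49) were lowest and SGA1 (0.65) highest. Below 0 were 6 of the 8 genes with the URS1 core and both values, and 2 of the 9 without it.

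**Figure D3:**
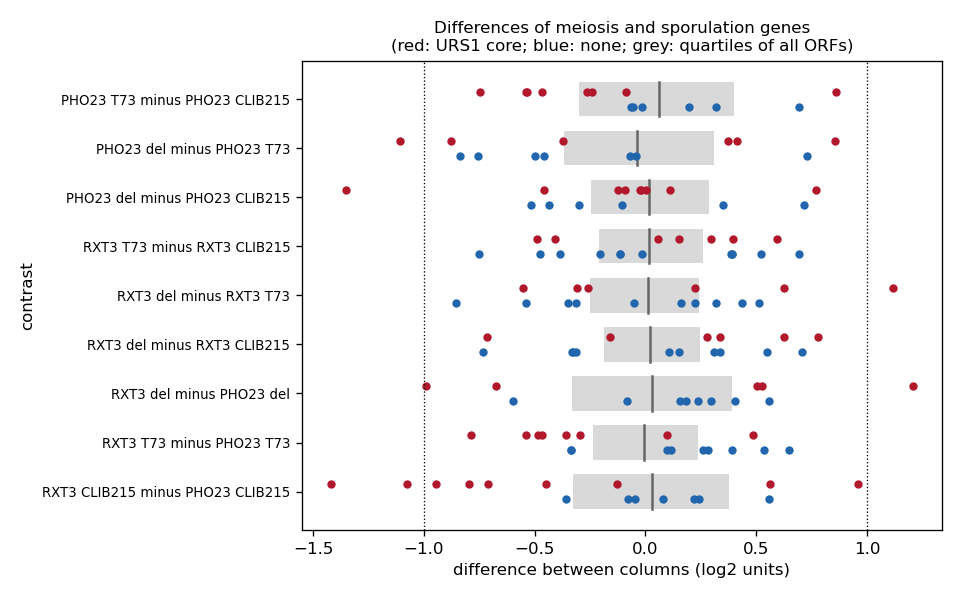
Differences of the genes with a value in both columns of a contrast, in log2 units, for the 9 contrasts (red points with the URS1 core, blue points without it), over the quartiles (grey bar) and median (line) of all complete ORFs, with dotted lines at 1 unit. Few points pass the dotted lines, and in RXT3 CLIB215 minus PHO23 CLIB215 the red points reach −1.42 (ZIP1).

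The order of the columns seen in DMC1 and ZIP1, with both the PHO23 deletion and the PHO23 CLIB215 column above the other 4, held for 2 of the 10 complete genes, where 16.3% of complete ORFs had it. Those 2 are among the 5 complete genes with the URS1 core (CST9, DMC1, DON1, SPO22, ZIP1), and none of the 5 without it had this order. Of 217 other complete ORFs with the core 50 had it. The pattern was picked after the values were seen, and those columns also had the greater spread over all ORFs, whose part in this order was not tested.

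Genes outside meiosis that Ume6 is known to repress through URS1 were looked up for comparison. CAR1 (YPL111W), the arginase gene, had −0.64, 0.09 and −0.60 in the RXT3 columns and 1.16, −0.43 and 1.38 in the PHO23 columns. ACS1, an acetyl-CoA synthetase gene, had −0.30, 0.51 and −0.44, then 1.15, −0.39 and 1.23. INO1, of inositol synthesis, had −1.17 and −1.31 in the columns labelled RXT3 deleted and RXT3 T73, no value with the RXT3 CLIB215 allele, and 0.46, −0.85 and 0.29 in the PHO23 columns. All 3 were highest in the PHO23 deletion and the PHO23 CLIB215 column, as DMC1, HED1 and ZIP1 were. SPO22, SPO16 and DON1, which also hold the core, were not. Over all complete ORFs, 16.3% had both columns above the other 4, as had 50 of 217 with the core outside the 46 genes. This list was chosen with earlier results of these data known, so the likeness is no independent support. CAR2, the ornithine aminotransferase gene, which holds no core in the window, ran from −0.39 to 0.34.

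**Figure D4:**
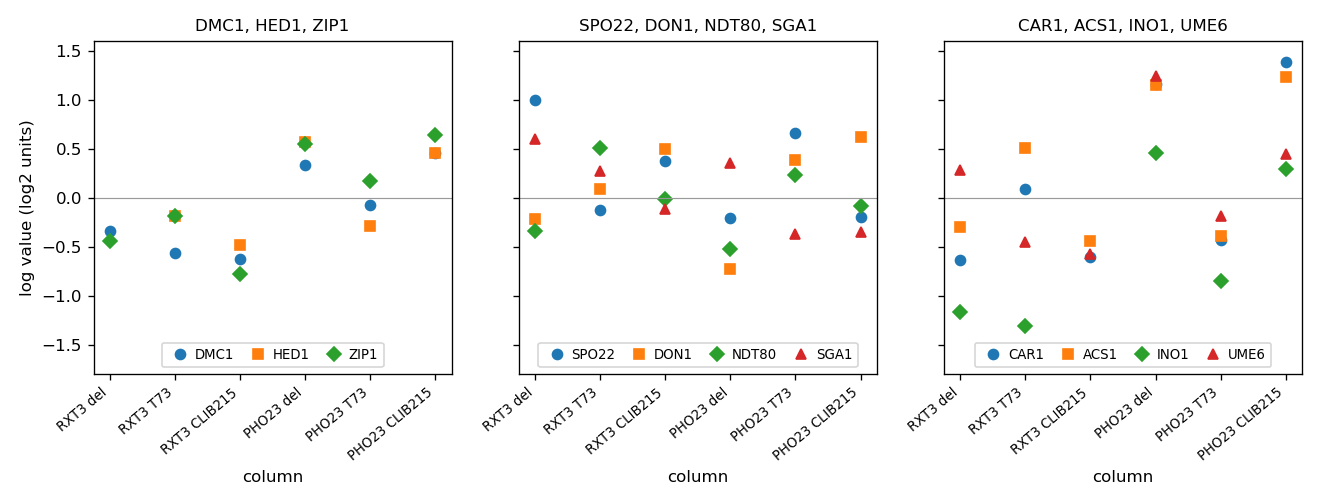
Log values in log2 units in the 6 columns for DMC1, HED1 and ZIP1 (left), for SPO22, DON1, NDT80 and SGA1 (middle) and for CAR1, ACS1, INO1 and UME6 (right), 1 point per column. The left and right groups are highest in the PHO23 deletion and PHO23 CLIB215 columns (ZIP1 at 0.55 and 0.64, CAR1 at 1.16 and 1.38), and the middle group has no common order.

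The regulators of entry into meiosis were better measured, with 15 of 17 complete. UME6 (YDR207C), the URS1-binding repressor, had 0.28, −0.45 and −0.57 in the RXT3 columns and 1.24, −0.19 and 0.45 in the PHO23 columns, so its own value was highest in the PHO23 deletion, by 1.43 over the PHO23 T73 allele. RPD3, the deacetylase, had 0.24, 0.04 and 0.14 in the RXT3 columns and −0.42, 0.13 and −0.33 in the PHO23 columns, and its scaffold gene SIN3 stayed between −0.17 and 0.17. MCK1, a kinase gene that promotes entry, was higher with the PHO23 T73 allele (1.20) than in the PHO23 deletion (0.06), the PHO23 CLIB215 column (−0.0043) or the RXT3 T73 column (−0.11).

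SUM1, the repressor of middle genes, had 0.39 with the PHO23 T73 allele and −0.63 with the PHO23 CLIB215 allele. RIM15, a kinase gene of nutrient signalling, was lower in the PHO23 deletion than with the PHO23 T73 allele (difference −1.04). SSN8, a cyclin gene known to repress meiotic genes, had −0.76 in the PHO23 deletion, −0.56 with the RXT3 CLIB215 allele and 0.73 with the PHO23 CLIB215 allele. RIM4, an RNA-binding protein gene, was lower with the RXT3 T73 allele than with the RXT3 CLIB215 allele (difference −1.18). IME4 and SLZ1, of the methylation of messenger RNA in meiosis, had no value.

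Of 32 other meiosis and sporulation genes, 6 were complete (18.8%) and 11 had no value (34.4%). SPR6, a sporulation gene of unknown role, was the only one past 1 unit in the 9 contrasts. It passed in the PHO23 deletion against CLIB215 (3.21% of complete ORFs) and in CLIB215 between loci (8.96%). The share of all ORFs past 1 unit in any of the 9 was not taken. Whether such genes are few or many, here or among the regulators above, cannot be told. SPR6 stood at 0.36 in the PHO23 deletion, 0.49 with the RXT3 CLIB215 allele and −0.75 with the PHO23 CLIB215 allele. The early genes MND1 (0.00, PHO23 deletion) and PCH2 (0.00, PHO23 CLIB215) had a value in a single column, as had MAM1 (−0.41, RXT3 T73). HOP2, whose promoter holds the longer URS1 form, was lowest in the PHO23 deletion (−0.16). It had −0.13 with the RXT3 CLIB215 allele, 0.15 with PHO23 T73 and 0.58 with PHO23 CLIB215.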

How the data were processed

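The authors deposited 1 table of log values, read here as log2, with 1 column per strain. The values lie around 0 for each ORF and are read as centred, though 82 of 208 ORFs with a single value are not at 0. Nothing in it states the log base, and with another base the differences would keep their order but 1 unit would be another ratio. Per the labels' protocols, RNA was fragmented, enriched for poly(A) and reverse transcribed from barcoded primers with unique molecular identifiers. Bowtie and build R64 stand in the submitters' processing notes. For counting, strand, normalization, centring and the joining of replicates, nothing is given in the sources used here. Depth is unknown. With 1 column per strain and no replicate values, no interval or test is given.

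Of 6701 rows, 51 without an ORF name were left out. Medians and counts past 1 unit were taken over the 4956 ORFs with 6 values, and single differences and counts below 0 by motif over genes with a value in both columns. Promoters and names came from RefSeq R64, where all 46 genes matched. The genes, lists and motifs were chosen with earlier results of these data known. Values per column are given for genes past 1 unit in a contrast, the 10 genes with the largest span, IME1, IME2, NDT80, SPO11, SPO13, divergent neighbours, and UME6, RPD3 and SIN3; other values were added afterwards. Python 3.11.15, pandas 2.3.3 and matplotlib 3.10.9 were used.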

Additional observations from a re-analysis of the deposited data

How the results depend on the processing

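No paired analysis was possible because the columns carry no replicate, and there is no value without a library for the same reason. Centring the columns on their medians, or also scaling them to 1 SD, moved none of the 9 medians of the complete genes by 0.1 or more. The counts past 1 unit changed in 1 contrast each, to 2 for the deletions (centred) and to 0 for the PHO23 deletion against T73 (scaled).

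With columns named by the genotype field, medians turned to 0.051 for the PHO23 deletion against CLIB215 and to −0.016 for RXT3 T73 against CLIB215. They moved to −0.0995 for the PHO23 deletion against T73, 0.34 for the RXT3 deletion against T73, 0.053 for the deletions, −0.29 for T73 between loci and −0.21 for CLIB215 between loci. Counts past 1 unit became 0 for the PHO23 deletion against T73, 2 for RXT3 T73 against CLIB215, 0 and 1 for the RXT3 deletion against T73 and CLIB215, and 1 for CLIB215 between loci. No share over all complete ORFs was taken under these names. Genes without URS1 with a value then numbered 10 in the RXT3 CLIB215 column and 16 in the PHO23 deletion, and genes with it 13 and 9. This follows from the exchange of column names.

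With all genes valued in both columns, medians moved to −0.092 (PHO23 deletion against CLIB215), 0.056 (RXT3 T73 against CLIB215), 0.21 (RXT3 deletion against CLIB215), 0.24 (deletions) and 0.10 (T73 between loci, where the main median was −0.10). A rule of 0.6 unit counted 1 gene for the PHO23 alleles, 4 and 2 for the PHO23 deletion against T73 and CLIB215, 3 and 4 for the RXT3 deletion against T73 and CLIB215, 3 for the deletions and 2 for T73 between loci. The share of all complete ORFs past 0.6 unit was not taken, so whether these counts are high or low cannot be told. With the longer URS1 form, chosen after seeing the data like the 500-base window and the names for the counts of genes with a value, 3 genes with it had a value where RXT3 was labelled deleted and 5 with PHO23 T73, against 10 in the PHO23 deletion and 8 with PHO23 CLIB215. The window of 500 bases changed no count of genes with a value by more than 1.5 times.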
